A study of Rattus norvegicus with 3 samples.

Results

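Oligodendrocyte precursors were studied in single-nucleus RNA libraries from the nucleus accumbens, the ventral part of the striatum, of outbred Wistar rats aged 16 weeks. The rats had been sorted by their behaviour into low and high anxiety, and some high anxiety rats then received urolithin A, a gut microbial metabolite of dietary ellagitannins, for 2 months. The 3 libraries were low anxiety without treatment, high anxiety without treatment, and high anxiety with urolithin A, each made from tissue punches of 5 hemispheres pooled before nuclei were isolated. One library per group leaves no replicate of a condition, and the hemispheres cannot be told apart within a library. Values from the libraries are given in the order low anxiety, high anxiety, urolithin A throughout.

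A nucleus was taken as a precursor from its counts of unique molecular identifiers (UMIs, one per captured transcript molecule). Members were chosen by the counts of a few marker genes. The rule asked for 500 genes or more, a mitochondrial share of UMIs no higher than 5%, a sum of at least 6 UMIs over Pdgfra, Cspg4, Vcan, Neu4 and Megf11 with at least 1 from Pdgfra or Cspg4, at most 1 UMI of Gpr17, and fewer than 10 UMIs over the striatal neuron genes Ppp1r1b, Bcl11b, Pde10a, Rgs9 and Rarb. Lhfpl3, the other gene named in the rule, was not analysed here. The rule found 424 precursors among 10806 nuclei that passed the gene and mitochondrial limits: 137 of 3476, 147 of 3810 and 140 of 3520. They held 411635, 547580 and 438427 UMIs in all, with a median per nucleus of 2991, 3415 and 2937.5 UMIs and of 1763, 1983 and 1772 genes. Pairs of libraries shared 4 to 6 of their barcodes, 0 were precursors in both libraries and 1 was a precursor in 1 of them.

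Oligodendrocyte precursors, also called NG2 glia after the proteoglycan encoded by Cspg4, divide in the adult brain and give rise to myelinating oligodendrocytes. Platelet-derived growth factor acting on the receptor encoded by Pdgfra keeps them dividing, while Notch, Wnt and BMP signals hold back their maturation. They carry ion channels and neurotransmitter receptors and receive synapses from neurons, which sets them apart from other glia.

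The genes of the rule were a description of how the nuclei were picked and were not tested. In CPM, the UMIs of a gene scaled to 1000000 UMIs of the precursor sum of each library, Pdgfra stood at 1547, 1461 and 1503, and Vcan at 1275, 1235 and 1186. Cspg4 stood at 879, 705 and 744, Megf11 at 2053, 1788 and 1583, and Neu4 at 126, 108 and 130. None of them differed by 1.5-fold between any 2 libraries. The median marker sum was 16, 19 and 15 UMIs. Just inside the limit, 9, 6 and 4 nuclei had a sum of 6 or 7, and just outside it 4, 3 and 1 nuclei had a sum of 4 or 5 and met the other conditions. Precursor genes that the rule did not use took 27.5, 10.9 and 31.3 of every 1000 UMIs in the nuclei just inside and 20.5, 21.8 and 20.1 just outside, against 35.3, 33.2 and 32.1 in nuclei with a sum of at least 8. The same genes took 8.46, 8.05 and 8.03 in astrocytes and 2.45, 2.61 and 2.48 in oligodendrocytes.

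C1ql1, a secreted complement-related protein and the given marker that the rule did not use, served as a check of the label. At least 1 UMI of it was found in 123 of 137, 133 of 147 and 134 of 140 precursors, which is 89.8%, 90.5% and 95.7%. In astrocytes, with a median of 2113, 2780 and 2681.5 UMIs per nucleus, the share was 3.28%, 2.31% and 4.23%. After thinning every nucleus to 1500 UMIs, which left out 5, 1 and 4 precursors, the shares were 77.3%, 70.5% and 83.8% in precursors against 1.99%, 1.84% and 4.32% in astrocytes. Nuclei bearing C1ql1 were the large majority of precursors in every library. Among markers of other cells, the summed level of 13 vascular and fibroblast genes was 29.2, 45.7 and 34.2 CPM in precursors, with 9, 9 and 8 of the 13 at 0. The 10 oligodendrocyte markers together reached 1134, 2553 and 1476 CPM. The 13 astrocyte markers reached 1134, 1046 and 910 CPM and the 10 microglia markers 311, 354 and 130. Of the microglia markers, Apbb1ip alone stood at 104, 130 and 96.5 CPM in the precursors of the class comparison below. It was 6.09 log2 units above astrocytes and 2.55 above oligodendrocytes there, so the microglia sum is not read as microglial RNA alone. Neuronal markers were found as well. The 11 of medium spiny neurons, some of which the rule limits, reached 1144, 1087 and 976 CPM. The 9 of GABAergic interneurons reached 170, 144 and 210 CPM, and the 7 of glutamatergic neurons 26.7, 115 and 4.56. Some members also met the rule of another class, 8, 13 and 7 nuclei, most often that of oligodendrocytes in the high anxiety library (3, 9 and 4 nuclei). No doublet caller was run, and results that rest on those nuclei are given with and without them.

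To describe the identity of precursors beyond the rule, their summed counts were set against those of astrocytes and of mature oligodendrocytes from the same libraries. The 3 libraries were the replicates and the library was a block in the edgeR quasi-likelihood test. Nuclei that met the rules of more than 1 class were left out of both sides, which left 129, 134 and 133 precursors, 229, 156 and 129 astrocytes and 710, 1065 and 946 oligodendrocytes. A gene was called at an adjusted p under 0.05 and a difference of at least 2-fold, and genes that any class rule sums were never counted. Of 8633 genes, 1174 (13.6%) were higher and 1173 (13.6%) lower in precursors than in astrocytes. Against oligodendrocytes 1802 (20.9%) were higher and 1352 (15.7%) lower. Higher than both were 755 genes (8.75%), and lower than both were 322 (3.73%). Counts of list members below are to be read beside these shares. Levels in the class comparisons below are CPM over the nuclei of the fit, and they may not be compared between genes because they are not per length. P-values rest on the spread between 3 pooled libraries of different groups.

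Identity genes that the rule did not use were higher in precursors as a group. Of 23 tested, 20 were higher and 2 lower than in astrocytes, with a median log2 difference of 4.09, and 18 were higher and 0 lower than in oligodendrocytes, with a median of 4.08. The median over all genes tested was 0.00 against astrocytes and -0.04 against oligodendrocytes. The list was drawn from genes known for this cell type, so its direction is a description of the nuclei. C1ql1 stood at 1174, 963 and 1213 CPM in precursors, 15.1, 4.43 and 22 in astrocytes and 6.29, 3.34 and 6.16 in oligodendrocytes. The log2 difference was 6.35 (SE 0.207, adjusted p = 2.4e-17) against astrocytes and 7.57 (SE 0.177, adjusted p = 3.4e-20) against oligodendrocytes by edgeR. In every library the precursor level lay far above both other classes, with no overlap.

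Among lineage transcription factors the pattern split by comparison. Sox10, the factor that drives oligodendrocyte lineage genes, stood at 335, 353 and 431 CPM in precursors, 1.89, 4.43 and 8.25 in astrocytes and 318, 407 and 408 in oligodendrocytes. It was higher than in astrocytes (log2 difference 6.30, SE 0.28, adjusted p = 2.5e-15 by edgeR) and did not pass against oligodendrocytes (-0.19, adjusted p = 0.15). Precursors and oligodendrocytes thus overlapped in Sox10, and both lay above every astrocyte value. Olig2, a basic helix-loop-helix factor of the same lineage, stood at 152, 214 and 198 CPM in precursors against 71.3, 90.5 and 90.2 in oligodendrocytes, a log2 difference of 1.00 that fell just short of the 2-fold limit (adjusted p = 7.4e-07 by edgeR). Olig1, its neighbour in function, stood at 245, 223 and 215 CPM against 249, 231 and 239, and did not pass. Sox6, a factor that restrains maturation, separated precursors from oligodendrocytes instead, at 1901, 1736 and 1822 CPM against 13.3, 23.7 and 14.5 (SE 0.182, adjusted p = 2.5e-19 by edgeR). Myt1, a zinc finger factor of precursors, stood at 490, 626 and 530 CPM, 6.48 above astrocytes and 7.34 above oligodendrocytes on the log2 scale.

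**Figure D1:**
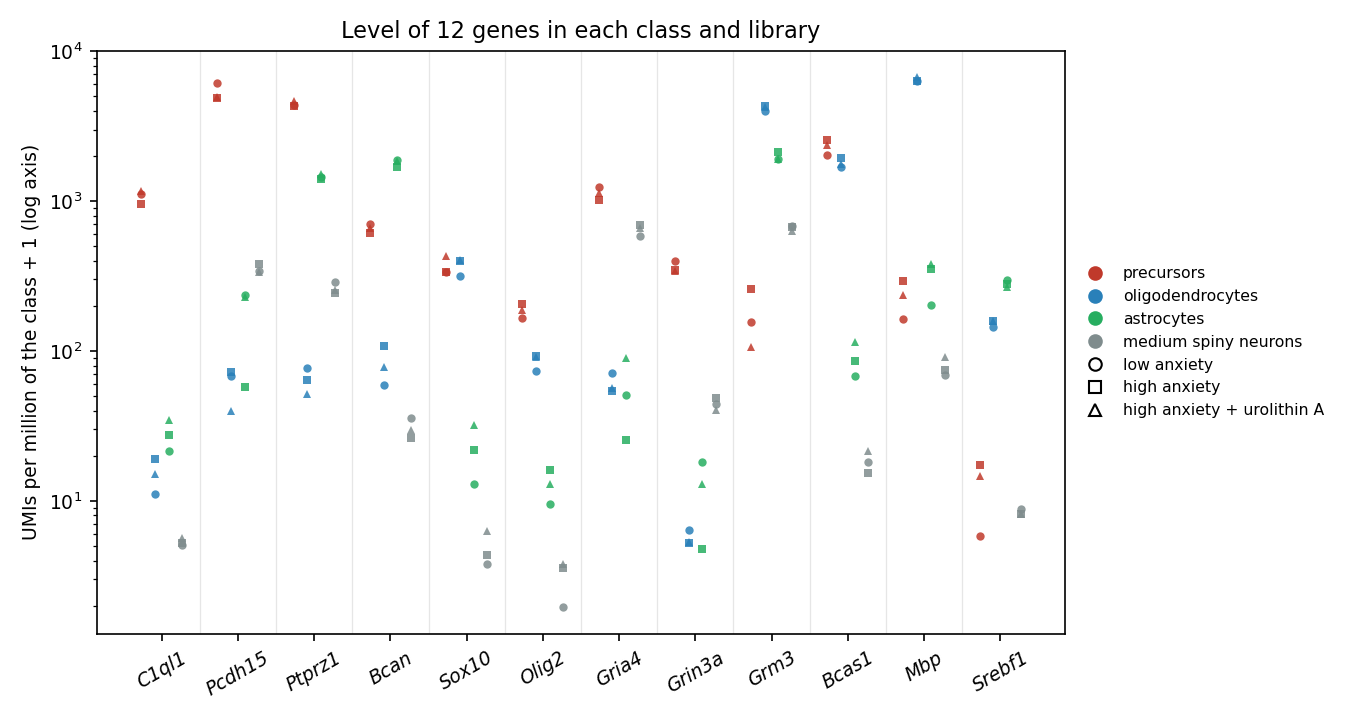
Levels of 12 genes in precursors, oligodendrocytes, astrocytes and medium spiny neurons, in CPM + 1 on a log axis, over all members of each class; circles are low anxiety, squares high anxiety and triangles high anxiety with urolithin A. C1ql1 and Pcdh15 set precursors apart from both other glia, Sox10 is shared with oligodendrocytes and Bcan with astrocytes, and Grm3 and Srebf1 are low in precursors.

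The 12 genes with the largest smaller difference from both other glia included the following. Calcrl, the calcitonin receptor-like receptor, stood at 399, 399 and 455 CPM in precursors and at no more than 4.43 in astrocytes and 2.2 in oligodendrocytes. Arhgap31, a GTPase activating protein for Rac and Cdc42, stood at 2215, 2091 and 2025 CPM and was 7.28 and 6.77 log2 units above astrocytes and oligodendrocytes. Tmem255b, a membrane protein, stood at 636, 452 and 547 CPM and was 7.15 and 8.26 higher. Each of these was separate from both classes in all 3 libraries. Nxph1, a secreted ligand of neurexins, stood at 4862, 4652 and 4322 CPM against 17, 13.3 and 44 in astrocytes and 39.1, 57.1 and 25.5 in oligodendrocytes. Pmel, a melanosome fibril protein, had only 3 UMIs in all astrocytes of the fit, and the ratio of summed levels was 156 with a counting interval of 52.9 to 758. B3gnt7, a glycosyltransferase, had 0 UMIs there and was at least 36.4-fold higher in precursors, against a floor of 3 counts over the 3 libraries. Outside these 12 genes, Ccnd1, the cyclin of the G1 phase, also had 0 UMIs in astrocytes. It was at least 42.5-fold higher in precursors against the same floor, and 6.12 log2 units above oligodendrocytes.

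Pcdh15 and Cntn6, a protocadherin and a contactin of the cell surface, are shown with their promoters, as examples of genes that stood high in precursors alone among the glia compared. Pcdh15 stood at 6185, 5211 and 5141 CPM in precursors against 22.6, 8.87 and 104 in astrocytes and 30, 20.4 and 16.7 in oligodendrocytes. The log2 differences were 7.07 (SE 0.337, adjusted p = 8.9e-15) and 7.81 (SE 0.317, adjusted p = 1.4e-16) by edgeR. Its UMIs were in 99.3%, 99.3% and 100% of precursors, and also in 46.3%, 49.1% and 41.2% of medium spiny neurons, so the separation holds among glia. Cntn6 stood at 647, 462 and 532 CPM, 6.69 and 7.11 log2 units above the other glia. The windows below run from 250 bases before to 50 after the start annotated by RefSeq, on the rat build GRCr8, 5′ to 3′ along the gene's strand. Capitals mark 2 motifs that do not overlap here: ACAAAG on either strand (read CTTTGT on the other), a core bound by Sox proteins, and CAGCTG, an E-box of basic helix-loop-helix factors and its own reverse complement. The counts themselves were made on another build, mRatBN7.2.
Pcdh15, chr20:14824749-14825048, minus strand: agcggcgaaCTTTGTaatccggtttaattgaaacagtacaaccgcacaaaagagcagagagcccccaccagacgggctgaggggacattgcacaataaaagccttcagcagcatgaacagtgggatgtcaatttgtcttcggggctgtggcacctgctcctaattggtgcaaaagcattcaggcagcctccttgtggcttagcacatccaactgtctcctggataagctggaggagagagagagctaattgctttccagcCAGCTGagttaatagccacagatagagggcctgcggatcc
Cntn6, chr4:138911317-138911616, plus strand: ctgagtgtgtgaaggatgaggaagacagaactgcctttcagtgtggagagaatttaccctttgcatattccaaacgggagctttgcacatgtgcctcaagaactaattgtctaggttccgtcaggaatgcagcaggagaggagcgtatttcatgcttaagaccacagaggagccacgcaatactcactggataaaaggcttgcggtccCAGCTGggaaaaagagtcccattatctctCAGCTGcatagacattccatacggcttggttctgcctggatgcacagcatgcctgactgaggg
ACAAAG occurred on either strand in 18.3% of 27457 RefSeq promoters of this length and in 2 of the 11 matched among the 12 genes. CAGCTG occurred in 15.1% of all and in 2 of the 11, which are the windows printed. ACAATG, another Sox core that differs from the first in 1 base, occurred on either strand in 13.0% of all and in 1 of the 11. These counts describe letters in a window and say nothing on binding.

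Matrix and growth factor genes gave a mixed picture. Of 19 proteoglycan, matrix and chondroitin sulfate genes tested, 8 were higher and 7 lower than in astrocytes, and 16 were higher and 1 lower than in oligodendrocytes. Ptprz1, a receptor phosphatase carrying chondroitin sulfate, stood at 4470, 4624 and 4767 CPM in precursors, 1411, 1494 and 1532 in astrocytes and 23.8, 14.8 and 11.9 in oligodendrocytes. It was higher than in both, by 1.63 (SE 0.151, adjusted p = 1.9e-09) and 7.99 (SE 0.213, adjusted p = 1.2e-19) on the log2 scale by edgeR. Bcan, the perineuronal net component brevican, stood at 708, 618 and 668 CPM in precursors, below astrocytes at 2003, 1817 and 1980 and above oligodendrocytes at 36.3, 81.6 and 56.3. Tnr, the matrix glycoprotein tenascin-R, was higher than in both, at 506, 462 and 527 CPM. Xylt1, which starts the glycosaminoglycan chain, and Chst11, which sulfates it, were higher than in both, at 1235, 1318 and 1255 CPM and at 1230, 1280 and 1064 CPM. Gpc5, a heparan sulfate glypican, was lower than in astrocytes by 2.34 log2 units, at 2335, 1825 and 1594 CPM against 9411, 9438 and 9501, although it was 5.83 above oligodendrocytes.

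Among 21 growth factor receptors, ligands and relays other than Pdgfra, 4 were higher and 4 lower than in astrocytes, and 5 were higher and 3 lower than in oligodendrocytes. Over all genes tested 13.6% were higher and 13.6% lower than in astrocytes, and 20.9% and 15.7% than in oligodendrocytes. The counts are thus not read as a result about the list. The fibroblast growth factor receptors divided. Fgfr2 was almost silent in precursors, at 2.66, 4.2 and 12.4 CPM against 273, 355 and 294 in astrocytes and 518, 640 and 578 in oligodendrocytes, log2 differences of -5.59 and -6.65. Fgfr1 stood at 120, 130 and 106 CPM, 2.34 above oligodendrocytes, and did not pass against astrocytes. Every precursor value of Fgfr2 lay below every value of the other classes. Egfr, the epidermal growth factor receptor, was intermediate at 47.9, 33.6 and 22.3 CPM, lower than astrocytes by 3.20 (log2 difference -3.20) and 4.16 above oligodendrocytes. Erbb4, a neuregulin receptor, stood at 2449, 2503 and 2045 CPM, 2.99 above astrocytes, and did not pass against oligodendrocytes at 1855, 1998 and 2005 (0.10, adjusted p = 0.63 by edgeR). Spry4, an inhibitor that is induced by receptor tyrosine kinase signalling, was 3.62 above astrocytes on the log2 scale. It had 1 UMI in all oligodendrocytes of the fit, and the ratio of summed levels there was 352 with a counting interval of 61.1 to 14092.

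Glutamate receptors and AMPA receptor partners were mostly higher in precursors than in either glial class. Of 24 tested, 17 were higher and 3 lower than in astrocytes (median log2 difference 2.12), and 19 were higher and 1 lower than in oligodendrocytes (median 2.51). Gria4, an AMPA receptor subunit, stood at 1281, 1080 and 1168 CPM against 20.7, 6.65 and 63.2 in astrocytes and 61.5, 44.9 and 50.2 in oligodendrocytes, differences of 5.40 (SE 0.244, adjusted p = 3.4e-15) and 4.34 (SE 0.175, adjusted p = 1.2e-16) by edgeR. Gria4 UMIs were in 90.5%, 93.2% and 92.1% of precursors, 4.92%, 4.05% and 9.15% of astrocytes and 86.2%, 91.8% and 89.9% of the deeper medium spiny neurons. Thinned to 1500 UMIs, those shares were 79.5%, 72.6% and 79.4% in precursors, 2.99%, 1.84% and 5.04% in astrocytes and 52.1%, 56.7% and 54.1% in medium spiny neurons. Precursors stood far above astrocytes of the same libraries in this share. Whether free RNA in droplets or doublets with neurons have a part in the precursor values was not tested. Gria2, the subunit that makes AMPA receptors impermeable to calcium, stood at 1757, 1846 and 1599 CPM, 3.37 above oligodendrocytes, and stayed just under the 2-fold limit against astrocytes (0.97, adjusted p = 3.5e-06 by edgeR).

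Other members of the glutamate list filled in the same pattern, with a few exceptions. Grin3a, an unusual NMDA receptor subunit, stood at 394, 368 and 356 CPM against at most 8.25 in astrocytes and 2.64 in oligodendrocytes. Grik1, a kainate receptor subunit, was 5.95 and 2.49 log2 units above the other glia, at 517, 395 and 354 CPM. Grm5 and Grm7, metabotropic receptors, stood at 692, 721 and 666 and at 807, 780 and 800 CPM and were higher than in both classes. Cacng4, an AMPA receptor auxiliary subunit, stood at 442, 448 and 408 CPM, 2.85 and 6.45 higher. The members that were lower included Grm3, the metabotropic receptor of astrocytes and oligodendrocytes, at 45.3, 46.2 and 14.9 CPM in precursors against 1939, 2126 and 1875 and against 4013, 4382 and 4290. It was lower by 5.81 and 7.06 log2 units (log2 differences -5.81, adjusted p = 4.9e-16, and -7.06, adjusted p = 3.8e-18, by edgeR).

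**Figure D2:**
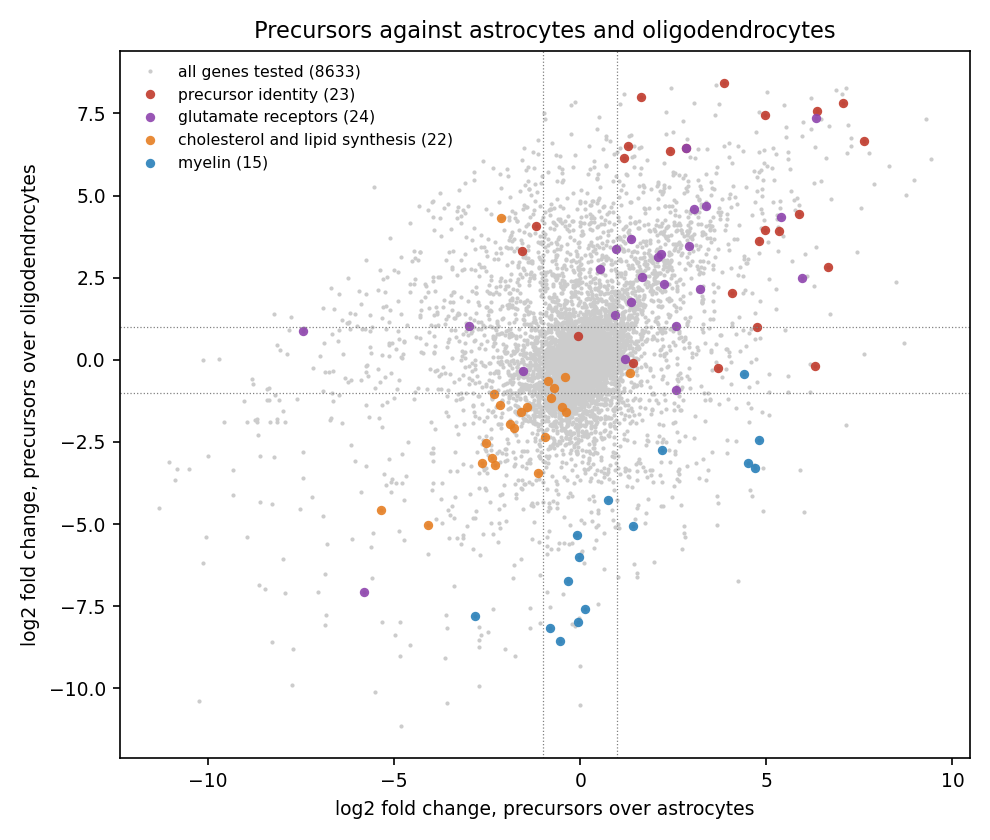
Log2 difference of precursors from astrocytes (horizontal) and from oligodendrocytes (vertical) for 8633 genes in grey, with 23 precursor identity genes in red, 24 glutamate receptor genes in purple, 22 cholesterol and lipid genes in orange and 15 myelin genes in blue; dotted lines mark 2-fold. Red and purple points gather at the upper right, orange points at the lower left, and blue points at the bottom.

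GABA receptors differed by comparison. Of 12 tested, 5 were higher and 3 lower than in astrocytes, with a median of -0.59, and 11 were higher and 0 lower than in oligodendrocytes, with a median of 3.22. Gabrb1, a beta subunit of the GABA-A receptor, stood at 125, 221 and 156 CPM, far below the 1552, 1587 and 1867 of astrocytes (log2 difference -3.31). Gabra3, an alpha subunit, was 3.76 and 4.30 log2 units above astrocytes and oligodendrocytes, at 90.5, 90.4 and 59.4 CPM. The subunits present thus differed between precursors and astrocytes in both directions.

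Sodium, potassium and calcium channel genes and their partners were mostly higher in precursors than in either glial class. Over all members of each class, the 26 genes of the list summed to 7584, 7267 and 6932 CPM in precursors. In medium spiny neurons they summed to 22332, 21719 and 21698 CPM. Whether free RNA in droplets or doublets with neurons have a part in the precursor values was not tested. Of 25 sodium, potassium and calcium channel genes tested, 16 were higher and 3 lower than in astrocytes (median 2.04), and 20 were higher and 1 lower than in oligodendrocytes (median 3.60). Scn1a and Scn3a, sodium channel alpha subunits, stood at 256, 223 and 292 and at 165, 179 and 146 CPM, against at most 32.1 and 6.65 in astrocytes and 34.2 and 7.79 in oligodendrocytes. Kcnd2 and Kcnip3, an A-type potassium channel and its partner, stood at 1784, 1633 and 1436 and at 349, 271 and 252 CPM and were higher than in both. Kcnq5, an M-current channel, stood at 1092, 1078 and 1010 CPM, 3.47 and 3.95 higher. Kcnj10, the inward rectifier Kir4.1 of astrocytes and oligodendrocytes, ran the other way at 136, 174 and 149 CPM against 286, 284 and 262 in oligodendrocytes (log2 difference -1.02, adjusted p = 1.6e-07 by edgeR). That call sat at the 2-fold limit: without the low anxiety library the difference was -0.94, under the limit. Against astrocytes, at 223, 239 and 234 CPM, Kcnj10 differed by -0.60, short of the limit, although no precursor value reached either class.

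Synaptic adhesion genes were mostly higher in precursors too. Of 31 tested, 19 were higher and 4 lower than in astrocytes, and 24 were higher and 2 lower than in oligodendrocytes. Lrrtm4, a postsynaptic leucine-rich repeat protein, stood at 2796, 2409 and 2537 CPM against 149, 35.5 and 88 and against 97.8, 44.5 and 57.6. Opcml, an adhesion protein of the IgLON family, stood at 4465, 4450 and 3866 CPM, 4.96 and 3.95 higher. Nlgn1, a neuroligin, was 1.06 and 3.46 higher at 4324, 3937 and 3857 CPM. Kirrel3 was lower than in both, at 501, 488 and 488 CPM against 1899, 1596 and 1908 and against 1189, 1254 and 1182.

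Among 27 axon guidance and migration genes, 11 were higher and 5 lower than in astrocytes, and 14 were higher and 6 lower than in oligodendrocytes. Over all genes tested 13.6% were higher and 13.6% lower than in astrocytes, and 20.9% and 15.7% than in oligodendrocytes. Dcc, the netrin receptor, and its ligand Ntn1 were both higher than in either class, at 2287, 1951 and 1827 CPM and at 458, 376 and 399 CPM. The other netrin receptors of the UNC5 family did not follow. Unc5c stood at 612, 574 and 624 CPM, 4.74 above astrocytes and short of the limit against oligodendrocytes at 847, 859 and 838. Unc5b stood at 2.66, 16.8 and 14.9 CPM against 41.5, 64.3 and 57.7 in astrocytes and 297, 372 and 324 in oligodendrocytes, and was lower than in both (log2 differences -2.19 and -4.96).

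Of 27 genes of Notch, Wnt, BMP and related signals that hold precursors undifferentiated, 3 were higher and 11 lower than in astrocytes, and 12 were higher and 4 lower than in oligodendrocytes. Notch1 stood at 154, 181 and 163 CPM, level with astrocytes at 153, 162 and 176 and 2.92 above oligodendrocytes. Notch2 had only 2 UMIs in all precursors of the fit, at 2.66, 2.1 and 0 CPM against 189, 250 and 157 in astrocytes and 133, 150 and 137 in oligodendrocytes. Precursors thus carried transcripts of one of these receptors and next to none of the other. Dll1, a Notch ligand, stood at 138, 88.3 and 109 CPM and was higher than in both, by 4.84 and 1.80. Lingo1, which restrains myelination, stood at 240, 273 and 220 CPM, 3.38 and 4.81 higher. Sox9, a glial factor that the lineage switches off, had 0 UMIs in the precursors of the fit, against 207 in astrocytes and 55 in oligodendrocytes.

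Commitment and myelin genes were compared with both other glia. Of 16 commitment genes tested, 9 were higher and 2 lower than in astrocytes, and 2 were higher and 9 lower than in oligodendrocytes. Bcas1, known from newly formed oligodendrocytes, stood at 2077, 2400 and 2384 CPM, 7.63 above astrocytes. Against oligodendrocytes at 1692, 1925 and 1777 it did not pass (0.18, adjusted p = 0.33 by edgeR), although each precursor value was the higher. Myrf, the factor that switches on myelin genes, stood at 7.99, 10.5 and 14.9 CPM against 174, 204 and 191 in oligodendrocytes (log2 difference -4.25). Enpp6, of newly differentiating cells, stood at 24, 2.1 and 2.48 CPM against 167, 220 and 204. Of its 10 UMIs over all precursors of the low anxiety library, 9 were in 1 nucleus. Of 15 myelin and mature oligodendrocyte genes, 0 were higher and 14 lower than in oligodendrocytes, with a median of -5.35, and 5 were higher and 1 lower than in astrocytes, with a median of 0.12. Mbp, myelin basic protein, stood at 77.2, 63.1 and 69.3 CPM against 6416, 6512 and 6779, and against 69.8, 70.9 and 124 in astrocytes, from which it did not differ past the threshold. Fa2h and Ugt8, enzymes of galactolipid synthesis, held a middle place: Fa2h stood at 186, 217 and 238 CPM, above astrocytes at 7.54, 8.87 and 5.5 and below oligodendrocytes at 1024, 995 and 1051 (log2 difference -2.43).

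**Figure D3:**
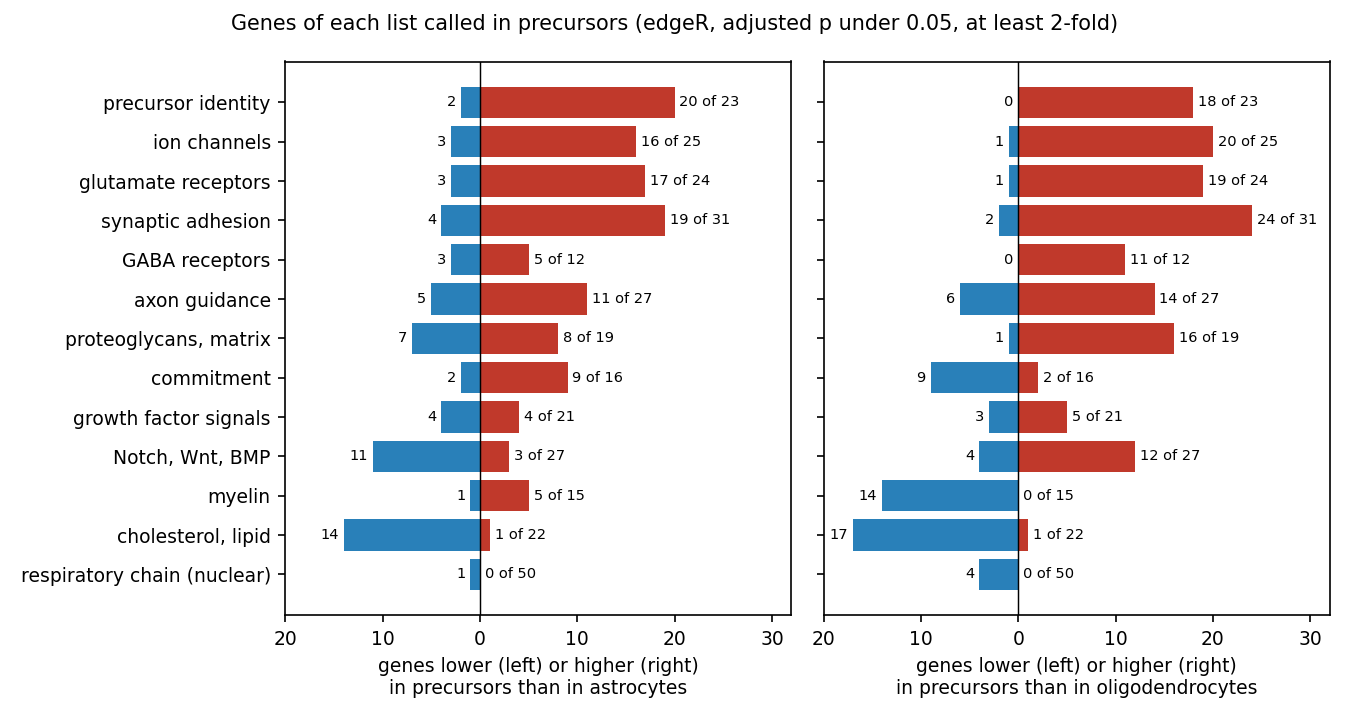
Number of genes called higher (red, to the right) or lower (blue, to the left) in precursors, for 13 gene lists, against astrocytes and against oligodendrocytes. Glutamate receptors, channels and adhesion genes lie to the right in both comparisons, cholesterol and lipid genes to the left in both, and myelin genes to the left against oligodendrocytes.

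Committed precursors, nuclei with at least 2 UMIs of Gpr17 and no more than 9 of the striatal genes, numbered 3, 5 and 5. Their rule asks for no precursor marker, and 1, 3 and 4 of them reached the marker sum of 6. They were too few for a fit, so ratios over the pooled 13 nuclei are descriptions with intervals for counting error only. Enpp6 was 5.87 log2 units higher in them than in precursors (5.04 to 6.77), but its 45 UMIs came from 5 of the 13 nuclei. Bmp4 was 2.51 higher (2.03 to 2.98), Tcf7l2, a Wnt effector of differentiating cells, 2.77 higher (2.39 to 3.14) and Bcas1 1.80 higher (1.66 to 1.93). Ptprz1 was lower in committed nuclei (log2 ratio -1.35, -1.63 to -1.07), and the interval of C1ql1 included 0 (-0.27, -0.68 to 0.12). Pdgfra and the other rule markers are not compared here, since precursors were chosen by them and committed nuclei were not.

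Cholesterol and lipid synthesis genes were lower in precursors than in both other classes. Of 22 tested, 14 were lower and 1 higher than in astrocytes (median -1.69), and 17 were lower and 1 higher than in oligodendrocytes (median -1.58). Srebf1, a master regulator of fatty acid synthesis, stood at 2.66, 10.5 and 7.43 CPM in precursors, 311, 304 and 269 in astrocytes and 143, 159 and 154 in oligodendrocytes. The log2 differences were -5.36 (SE 0.269, adjusted p = 2.4e-14) and -4.56 (SE 0.276, adjusted p = 3.1e-13) by edgeR. Srebf2, its counterpart for cholesterol synthesis, stood at 104, 84.1 and 94.1 CPM against 313, 372 and 352 and against 313, 332 and 325. Insig1, a sterol sensor, was lower than in both as well, at 34.6, 16.8 and 24.8 CPM (log2 differences -2.30 and -3.21). Scd2, a desaturase, stood at 365, 422 and 324 CPM against 811, 940 and 668 and against 3317, 3916 and 3529. For each of these genes, every precursor value lay below every value of the other classes. The 2 exceptions were Elovl6, a fatty acid elongase, 1.34 higher than in astrocytes, and Fads2, a desaturase, 4.31 higher than in oligodendrocytes and lower than in astrocytes (-2.12).

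Genes of mitochondria and of stress signalling were also compared between classes. Of 50 nuclear respiratory chain genes tested, 0 were higher and 1 lower than in astrocytes, and 0 were higher and 4 lower than in oligodendrocytes. Ppargc1a, a coactivator of mitochondrial biogenesis, stood at 772, 664 and 708 CPM against 236, 175 and 258 in astrocytes and 30, 14.1 and 14.5 in oligodendrocytes, differences of 1.69 (adjusted p = 3.3e-10) and 5.11 (adjusted p = 1.6e-18) by edgeR. It belongs to a list of 29 mitochondrial upkeep genes, of which 1 was higher and 4 lower than in astrocytes, and 2 were higher and 8 lower than in oligodendrocytes. Nfe2l2, the antioxidant response factor NRF2, was at 0, 0 and 2.48 CPM in precursors against 58.5, 59.8 and 79.7 in astrocytes and 40.5, 35.6 and 33.4 in oligodendrocytes. Among 12 corticosteroid genes, 2 were higher and 5 lower than in astrocytes, and 4 were higher and 3 lower than in oligodendrocytes. Nr3c1, the glucocorticoid receptor, did not reach the 2-fold limit in either comparison, and Sgk1, a kinase induced by glucocorticoids, was 4.09 and 1.12 higher, at 152, 107 and 131 CPM.

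At the far ends of both comparisons stood genes with no UMI in the precursors of the fit. Against astrocytes these included Cbs, an enzyme of cysteine synthesis with 458 astrocyte UMIs, Acsbg1, an acyl-CoA synthetase with 374, Pdgfrb, the other PDGF receptor, with 344, and Aqp9, an aquaglyceroporin with 204. Against oligodendrocytes they included Sec14l5 with 1733 oligodendrocyte UMIs, Galnt6, a mucin-type glycosyltransferase, with 1122, and Carns1, carnosine synthase, with 1081. Rlbp1, the cellular retinaldehyde-binding protein, stood at the other end against oligodendrocytes, at 447, 553 and 366 CPM in precursors against 0, 1.86 and 0.88. It was 8.43 higher (SE 0.263, adjusted p = 1.3e-18 by edgeR), and 3.86 above astrocytes.

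The share of nuclei that were precursors was near 4% in each library. It was 3.94% (95% exact binomial interval 3.32% to 4.64%), 3.86% (3.27% to 4.52%) and 3.98% (3.36% to 4.68%), intervals that cover counting error only and overlap throughout. With a stricter filter of 1000 genes or more and a mitochondrial share up to 1% the shares were 3.64%, 5.35% and 4.28%, and that filter kept fewer nuclei in every library.

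Between the libraries, gene levels within precursors were compared over all members as ratios with exact conditional 95% intervals for counting error. No test can be made with 1 library per group, so genes were counted by a fold of at least 1.5 among those with at least 100 UMIs in 1 of the 2 libraries. In high over low anxiety 49 of 1103 genes (4.44%) were higher and 28 (2.54%) lower. In urolithin A over high anxiety 21 of 1115 (1.88%) were higher and 25 (2.24%) lower, and in urolithin A over low anxiety 21 of 874 (2.4%) were higher and 13 (1.49%) lower. The comparisons share libraries, so each is given beside the others and no overlap is read from them. Members of gene lists were counted at a smaller limit, 25% higher or the same fold lower, which 14.1% of genes passed upward and 10.4% downward in high over low anxiety, and 8.52% and 10.7% in urolithin A over high anxiety.

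Precursor identity genes were then compared between libraries. Of 22 measured, 0 were higher and 2 lower in high than in low anxiety (median log2 ratio -0.11), and 2 were higher and 1 lower in urolithin A than in high anxiety (median 0.05). Among matrix and surface genes, Cspg5, neuroglycan C, stood at 2352, 1591 and 2016 CPM over all precursors, a log2 ratio of -0.56 (-0.70 to -0.43) in high over low anxiety and 0.34 (0.21 to 0.48) in urolithin A over high anxiety. Gpr37l1, a receptor of glia, stood at 714, 533 and 705 CPM, and Pmel at 377, 245 and 413. Pmel had ratios of -0.62 (-0.97 to -0.28) and 0.75 (0.42 to 1.09). Identity genes did not all follow this order. Rlbp1 was highest in the high anxiety library, as was Olig2 in the nuclei of the class fit. In Cspg5, Gpr37l1 and Pmel the high anxiety library was the lowest of the 3.

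Several genes spread over many precursors showed the same order. These genes, and those of the paragraph above, were named for their distance between libraries. Both ratios use the high anxiety library, so a low value there alone gives a fall and then a rise. The order is thus partly built in and is a description only. Serpine2, a secreted protease inhibitor, stood at 1292, 774 and 1129 CPM with UMIs in 129, 132 and 133 nuclei, ratios of -0.74 (-0.93 to -0.55) and 0.54 (0.35 to 0.73). Without nuclei that met another class rule it stood at 1353, 828 and 1181 CPM, so the order was unchanged. In astrocytes Serpine2 stood at 473, 306 and 484 CPM, also lowest in the high anxiety library. Pcdh11x, a protocadherin, stood at 974, 562 and 696 CPM and Tenm2, a teneurin, at 819, 526 and 696. Clu, the secreted chaperone clusterin, stood at 483, 289 and 360 CPM in precursors and at 3295, 2020 and 2317 in astrocytes. Whether free RNA from astrocytes has a part in the precursor values was not tested. Tenm1 and Lrrn1 were high in the low anxiety library and similar in the other two, at 423, 248 and 255 and at 464, 278 and 299 CPM.

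Other genes were low in the low anxiety library. Ctnna3, an alpha-catenin that oligodendrocytes express strongly, stood at 136, 380 and 299 CPM with UMIs in 36, 94 and 69 precursors, and at 104, 313 and 228 CPM without nuclei that met another class rule. Its ratio in high over low anxiety was 1.48 (1.05 to 1.93) in precursors, 0.95 in astrocytes, 1.37 in medium spiny neurons and 0.07 in oligodendrocytes. RT1-T24-3, a class I gene of the rat MHC whose reads may be shared with near-identical relatives, stood at 131, 296 and 239 CPM in 40, 91 and 67 nuclei. Its ratio was 1.17 (0.72 to 1.65) in precursors, 1.08 in astrocytes, 1.27 in oligodendrocytes and 1.09 in medium spiny neurons, so the difference was present in each of these classes and was not peculiar to precursors. Ddx46, a splicing helicase, stood at 82.6, 186 and 130 CPM in 29, 69 and 47 nuclei, with a ratio of 1.17 (0.60 to 1.78).

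Further genes differed between the urolithin A and the high anxiety library. Tmem196, one of the genes that set precursors apart from other glia, stood at 158, 146 and 251 CPM in 49, 56 and 61 nuclei, with a ratio of 0.78 (0.35 to 1.21). Nr3c1 stood at 255, 186 and 285 CPM, a ratio of 0.61 (0.23 to 1.01). Rlbp1 stood at 447, 510 and 344 CPM, a ratio of -0.56 (-0.86 to -0.27). Some genes at the ends of this comparison had a large part of their UMIs in 1 nucleus. Of 141 UMIs of Ralyl in the urolithin A library, 99 were in 1 nucleus. For Kcnip4, 140 of 212 UMIs of the high anxiety library were in 1 nucleus, and for Frmpd4 62 of 136. Ctss, a microglial protease, had 81, 138 and 2 UMIs, of which 73 and 63 were in 1 nucleus of the first and of the second library. Of its 138 UMIs in the high anxiety library, 123 were in nuclei that met another class rule.

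Myelin genes were higher in precursors of the high anxiety library. For the 3 genes followed below, most UMIs of that library were in nuclei that also met another class rule. Of 9 measured, 8 were higher in high than in low anxiety (median log2 ratio 1.05) and 6 lower in urolithin A than in high anxiety (median -0.66). Ptgds, a prostaglandin D synthase that is no member of the list but is abundant in oligodendrocytes, had 70, 288 and 159 UMIs, of which 54, 269 and 148 were in such nuclei. Mal, a proteolipid of myelin, had 55, 181 and 92 UMIs, of which 45, 173 and 83 were. Without them Ptgds stood at 42.6, 39.9 and 27.2 CPM and Mal at 26.6, 16.8 and 22.3. The ratio in high over low anxiety went from 1.63 to -0.093 for Ptgds and from 1.31 to -0.66 for Mal. Tf, transferrin, stood at 149, 124 and 106 CPM without them, and its ratio went from 1.27 to -0.27. Without those nuclei, the high anxiety library was thus not the highest in any of these 3 genes. Many of those nuclei were picked by oligodendrocyte markers, so a fall in myelin genes without them follows in part from the choice. It is a description of where the UMIs lay and no test of the difference.

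**Figure D4:**
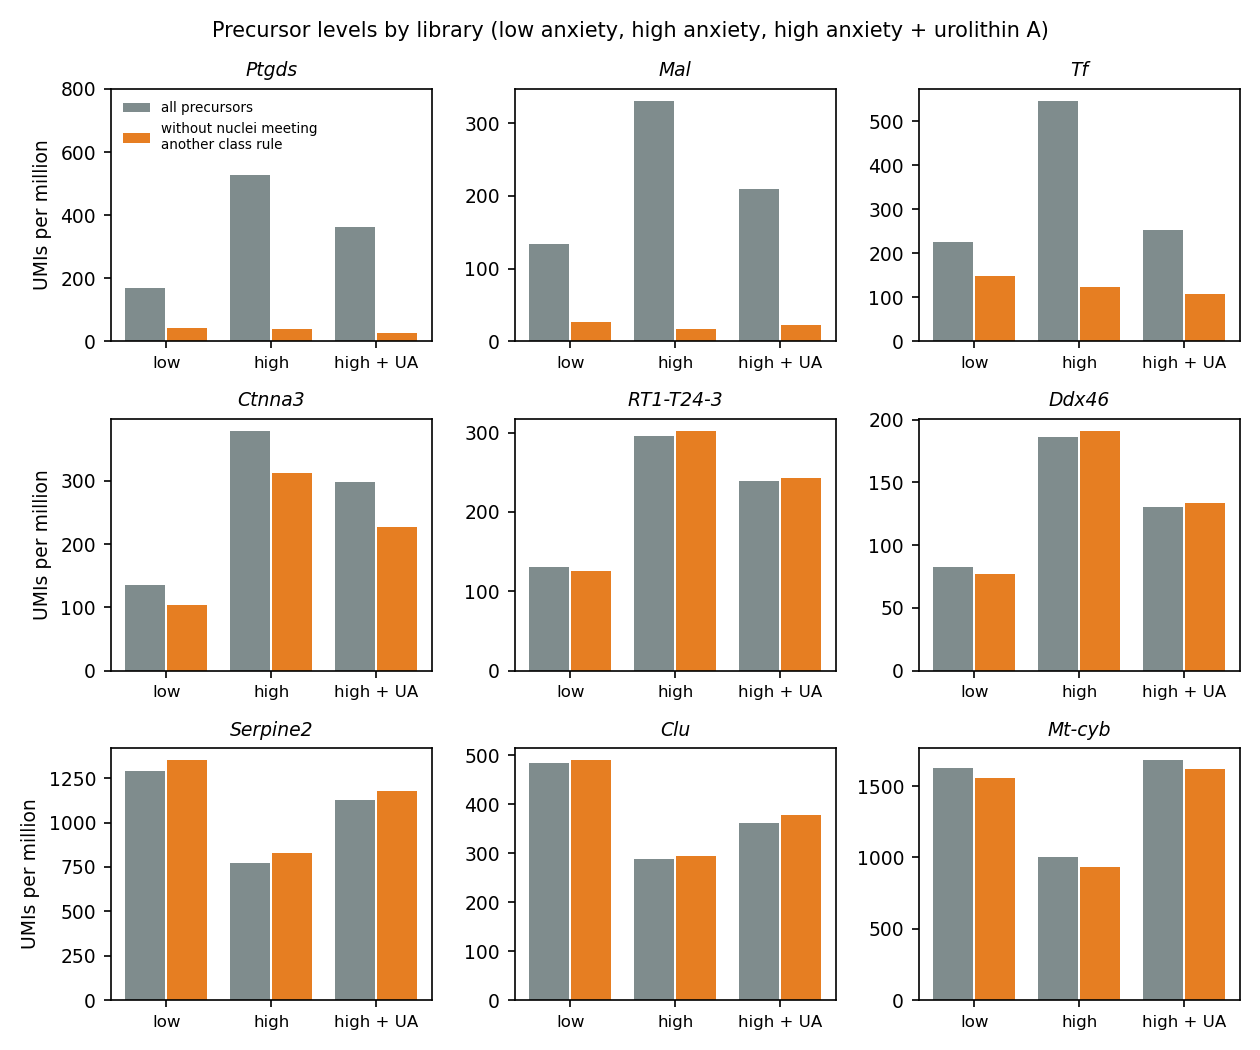
CPM of 9 genes in each library over all precursors (grey bars) and without nuclei that also met another class rule (orange bars), from 0. Ptgds, Mal and Tf lose most of their signal in the high anxiety library, whereas Ctnna3, RT1-T24-3, Ddx46, Serpine2, Clu and Mt-cyb keep their order.

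Transcripts of the mitochondrial genome were lowest in precursors of the high anxiety library. All 8 measured of the list were lower in high than in low anxiety (median log2 ratio -0.63) and 7 of 8 were higher in urolithin A than in high anxiety (median 0.66), while urolithin A and low anxiety differed by a median of 0.06. Their summed level was 12006, 8032 and 12527 CPM. Mt-cyb, cytochrome b of complex III, stood at 1630, 1004 and 1683 CPM, ratios of -0.70 and 0.74. Mt-co3, of complex IV, stood at 2138, 1368 and 2254, ratios of -0.64 and 0.72, and Mt-nd4, of complex I, at 1409, 878 and 1369, ratios of -0.68 and 0.64. The high anxiety library was the lowest in each, and both ratios use that library. In single precursors the median mitochondrial share was 1.03%, 0.632% and 0.878%, and 71, 42 and 66 nuclei were above 1%. Mitochondrial transcripts lie outside the nucleus, and in nuclear preparations their share also reflects cytoplasm carried along, whose part here was not tested.

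The other classes of the same libraries gave several orders. The median share was 0.904%, 0.563% and 0.447% in astrocytes and 0.898%, 0.513% and 0.543% in microglia, 1.59%, 1.43% and 1.13% in oligodendrocytes, and 0.624%, 0.822% and 0.953% in medium spiny neurons. Low anxiety was highest in the 4 glial classes and lowest in medium spiny neurons. Microglia had the order of precursors with a small step from high anxiety to urolithin A, and astrocytes and oligodendrocytes were lowest in urolithin A. Differences between classes in this order were not tested. The values in urolithin A over high anxiety held without nuclei that met another class rule, where Mt-cyb stood at 1555, 931 and 1619 CPM. They did not hold under the stricter filter, which asks for 1000 genes or more and a mitochondrial share up to 1%. The second limit acts on the measured quantity itself. Above 1% were 71 of 137, 42 of 147 and 66 of 140 precursors, and the stricter filter kept 66, 105 and 72. The mitochondrial limit thus removed all or nearly all of the precursors lost. Under the stricter filter Mt-cyb had a ratio of -0.062 and Mt-co3 of -0.013.

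**Figure D5:**
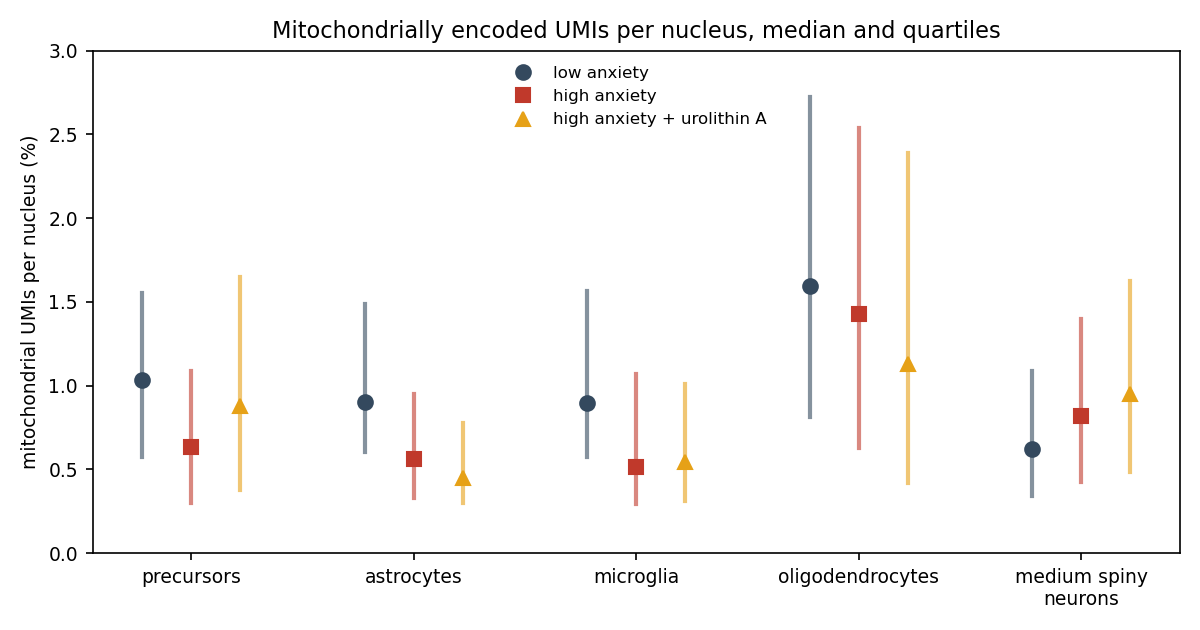
Mitochondrial UMIs as a percent of all UMIs per nucleus, as median (point) and quartiles (line), in 5 classes and 3 libraries. Precursors have medians of 1.03%, 0.632% and 0.878%, whereas medium spiny neurons run from 0.624% up to 0.953%.

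Precursors with several transcripts of dividing cells were few. At least 3 UMIs of genes of the G2 and M phases were found in 4, 8 and 5 precursors, or 2.92% (0.801% to 7.31%), 5.44% (2.38% to 10.4%) and 3.57% (1.17% to 8.14%). Among these nuclei 2, 5 and 4 also held Mki67 or Top2a. A single nucleus held 40 of 101, 70 of 246 and 104 of 240 G2 and M phase UMIs. In medium spiny neurons, which do not divide and were deeper, the share was 0.537%, 1.71% and 1.14%. Mki67 was in 0.73%, 1.36% and 5% of precursors and in 2.33%, 6.44% and 5.51% of these neurons. A UMI of Mki67 thus did not by itself mark a dividing nucleus. Top2a was in 2.19%, 4.08% and 2.86% of precursors and in 0.54%, 0.77% and 0.24% of the neurons. Top2a, a topoisomerase of dividing cells, had 11, 41 and 31 UMIs in 3, 6 and 4 precursors. With 1 library per group a difference between groups cannot be tested. Bmp4 stood at 99.6, 163 and 128 CPM over all precursors, and Fkbp5, a target of the glucocorticoid receptor, had 6, 17 and 17 UMIs, too few to be counted as measured. Pink1, a kinase of mitophagy, had 7, 4 and 1 UMIs, and no ratio was drawn from them.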

How the data were processed

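Single-nucleus RNA libraries were analysed from 3 groups, 1 pooled library each. In the deposited matrices each value is a count of UMIs for 1 feature and 1 barcode. Cell Ranger 7.1.0 made them, per the file headers. The build was mRatBN7.2, per the submitters' processing notes. Removal of free RNA and the counting of intronic reads are not given in the sources used here. Among 23098 features 1814 have no symbol, features sharing a symbol (194 symbols) were not merged, and 632 of 648 list symbols matched. P-values measure only the spread between these 3 pools.

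Nuclei were kept with 500 genes or more and a mitochondrial share up to 5% (3476 of 3619, 3810 of 4066 and 3520 of 3739 barcodes). Classes were set by sums of marker UMIs. The members, gene lists and class rules were chosen with earlier results of these data known, so a pattern known beforehand is no independent support. No doublet caller was run. Counts were summed per class and library. Class comparisons used edgeR 4.0.16 (limma 3.58.1, R 4.3.3) with filterByExpr, TMM scaling, library as a block and Benjamini-Hochberg adjustment over 8655 genes, of which 8633 lie outside the class rules. A comparison with committed precursors was planned and could not be fitted, since each library held 3 to 5 such nuclei and 10 were required. Library comparisons used ratios of CPM with Clopper-Pearson 95% intervals, which cover counting error only, since UMIs of 1 nucleus share their source. The class test and the ratio were tested on simulated data. Alternatives were DESeq2 1.42.0, other filters, libraries left out in turn, other marker sums, thinned nuclei and the class scaling.

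Genes were named by rule: genes of the membership rule and the given markers; the 8 highest and 8 lowest called genes of each class comparison; the 12 genes highest above both other classes; the 8 highest and 8 lowest of the main library comparisons and the 3 highest and 3 lowest of the third; in each list the 4 members furthest from 0 between libraries and the 4 highest in precursors; the 5 genes that most reversed between the main library comparisons, each way; and 13 genes given by symbol. List members named beyond it were chosen after their values were seen: Olig1, Sox6, Srebf1, Srebf2, Fgfr1, Fgfr2, Egfr, Spry4, Grin3a, Grm5, Grm7, Cacng4, Gabra3, Scn3a, Kirrel3, Unc5b, Notch1, Notch2, Dll1, Myrf, Ugt8, Insig1, Fads2 and Nfe2l2. Of the genes the rule picks, not all are named, and some are not reported here. Sums and ratios used pandas 2.3.3, scipy 1.17.1 and numpy 2.4.6 in python 3.11.15, and plots matplotlib 3.10.9.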

Additional observations from a re-analysis of the deposited data

How the results depend on the processing

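The numbers of genes called between classes stayed within 1.5 times under every alternative run. Against astrocytes, leaving out 1 library gave 1119 to 1160 genes higher and 1160 to 1196 lower, and against oligodendrocytes 1744 to 1817 higher and 1370 to 1428 lower. Replicate numbers came only from accession order, but libraries are the natural block of class sums, and dropping the block gave 1169 and 1173 against astrocytes and 1807 and 1347 against oligodendrocytes, in the order higher and lower. With DESeq2 the numbers were 1084 and 1120, and 1808 and 1264. Of 897 values of single genes in the class comparisons under alternatives, 867 kept their direction and call, 25 lost the call and 5 gained it. None of them reversed. The comparison with committed precursors had too few nuclei for any of its alternatives.

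The numbers of genes called between libraries depended on the UMI minimum. At 50 UMIs they were 197 higher and 67 lower in high over low anxiety, 90 and 98 in urolithin A over high anxiety, and 137 and 60 in urolithin A over low anxiety. At 200 UMIs they were 11 and 11, 7 and 8, and 1 and 1. Under the stricter nucleus filter they were 25 and 18 in high over low anxiety, 6 higher in urolithin A over high anxiety and 2 higher in urolithin A over low anxiety. Without nuclei that met another class rule they were 31 higher in high over low anxiety, 16 lower in urolithin A over high anxiety and 13 higher in urolithin A over low anxiety. With nuclei thinned to 1500 UMIs they were 6 and 14, 8 and 5, and 5 and 8. A marker sum of at least 10 gave 12 lower in urolithin A over high anxiety. TMM scaling gave 25 lower in urolithin A over low anxiety, and leaving out precursors above 10000 UMIs, an alternative chosen after seeing the data, gave 21. The cause was not tested, except that fewer UMIs leave fewer genes measured. Precursor shares moved to 5.35% in high anxiety under the stricter filter and, by the rule on thinned nuclei, to 3.20% in high anxiety and 3.34% in urolithin A.

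Log2 ratios reversed in the following values of single genes reported here. Without nuclei that met another class rule, high over low anxiety gave -0.34 for Mag, -0.66 for Mal, -0.093 for Ptgds and -0.27 for Tf, urolithin A over high anxiety gave 0.17 for Apod and 0.41 for Mal, and urolithin A over low anxiety gave -0.65 for Ptgds. Under the stricter filter, high over low anxiety gave -0.078 for Kcnip4. There urolithin A over high anxiety gave 0.39 for Apod, -0.11 for Mt-atp6, -0.013 for Mt-co3, -0.062 for Mt-cyb and -0.20 for Mt-nd4, and urolithin A over low anxiety gave -0.32 for Ptgds and -0.25 for Ralyl. With a marker sum of at least 10, Kcnip4 gave -0.43 in high over low anxiety and Ralyl -0.28 in urolithin A over low anxiety. Thinned nuclei gave -0.033 for Kcnip4 in high over low anxiety and -0.0020 for Myef2 in urolithin A over high anxiety. Without precursors above 10000 UMIs, high over low anxiety gave -0.026 for Frmpd4 and -0.31 for Kcnip4, and Ralyl gave -0.19 in urolithin A over high anxiety and -0.28 in urolithin A over low anxiety. With 137 to 147 precursors per library, ratios of genes with few UMIs have wide intervals.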

Other observations

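A list of receptors for adenosine, purines, acetylcholine, monoamines, opioids and cannabinoids also held the endothelin receptor gene Ednrb. Of its 11 members tested, 4 were higher and 6 lower than in astrocytes, and 7 were higher and 2 lower than in oligodendrocytes. Adra1a, an adrenergic receptor, stood at 58.6, 12.6 and 29.7 CPM in precursors against 207, 162 and 212 in astrocytes and was -2.59 log2 units from them, and 2.84 above oligodendrocytes. Cnr1, the cannabinoid receptor, stood at 31.9, 8.41 and 17.3 CPM against 90.5, 44.3 and 74.2, a difference of -1.91 from astrocytes and 2.02 from oligodendrocytes. Chrna4, a nicotinic receptor subunit, had 3 UMIs in all astrocytes and 2 in all oligodendrocytes of the class fit, and its summed level in precursors was 16.1 times (5.16 to 80.9) that of astrocytes, with an interval for counting error. Chrna7, another nicotinic subunit, stood at 37.3, 54.7 and 49.5 CPM and was higher than in both, by 3.36 and 3.84 log2 units. Ednrb, an endothelin receptor, stood at 210, 225 and 252 CPM, below astrocytes at 673, 492 and 784 and 5.31 log2 units above oligodendrocytes. Crhr1, the receptor of corticotropin-releasing hormone, had UMIs in 26, 38 and 32 precursors, or 19.0%, 25.9% and 22.9%, against 0.41%, 0% and 2.82% of astrocytes. At 1500 UMIs per nucleus those shares were 11.4%, 13.0% and 12.5%, against 0.498%, 0% and 1.44%. Ednrb was named by the rule for named genes, and the other receptors here were chosen after their values were seen.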
